A study of Mus musculus with 48 samples.

Results

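Pancreatic α cells and β cells sorted from mice after β-cell ablation were compared with each other. They gave 24 of the 48 RNA-seq libraries of the series, 12 from α cells and 12 from β cells, and were chosen by their labels alone: every library labelled as doxycycline-treated (DOX) and as α or β entered. All animals of the series, the controls included, were male mice 6 to 8 weeks old with 5 transgenes. ProGcg-Venus is a yellow reporter driven by the glucagon promoter and RIP-Cherry a red one driven by the insulin promoter, by which the islet cells were sorted. PER2::Luc is a luciferase fusion of a clock protein. TET-DTA is a diphtheria toxin gene under a doxycycline-dependent promoter, and Insulin-rtTA its activator, expressed from an insulin promoter. The DOX mice received 300 mg of doxycycline in drinking water with 2% sucrose, and the control mice received the sucrose water alone. Mice were fed only at night from 10 days before the experiment, in cycles of 12 h light and 12 h dark, and part of them lived under inverted cycles for 2 weeks. Islets were taken every 4 h at 6 zeitgeber times, which count hours from lights on, with 2 libraries per cell type, time and treatment. The labels do not say whether the 2 libraries of a time came from separate mice, so p-values measure the spread between libraries. The toxin is expressed where the insulin promoter is active, so the DOX β cells are the red cells that could still be sorted after ablation. All groups carry the toxin transgene and no group received doxycycline without it, so drug and ablation cannot be told apart in any comparison with control mice.

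β cells release insulin when glucose rises and α cells release glucagon when it falls. Each type keeps its identity through transcription factors, PDX1, MAFA and NKX6-1 in mouse β cells and IRX1 and IRX2 in mouse α cells, while others such as NEUROD1, PAX6 and ISL1 serve both. β cells make very large amounts of a single protein, and their chaperones, granule proteins, glucose transporter and potassium channels serve that load and its regulated release.

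The upstream sequences of 4 genes on which the comparison turns are shown because 2 of them are β-cell hormone genes, 1 is the α-cell hormone gene, and 1 is an α-cell gene whose difference nearly closed. Each is the 250 bases before the RefSeq start of the gene on GRCm38.p6, read 5′ to 3′ on the gene's strand. Capitals mark an E box core searched as CATCTG and a homeodomain core searched as TAAT, each also as its reverse complement, CAGATG or ATTA.
Ins1 (chr19:52264047-52264296, plus strand): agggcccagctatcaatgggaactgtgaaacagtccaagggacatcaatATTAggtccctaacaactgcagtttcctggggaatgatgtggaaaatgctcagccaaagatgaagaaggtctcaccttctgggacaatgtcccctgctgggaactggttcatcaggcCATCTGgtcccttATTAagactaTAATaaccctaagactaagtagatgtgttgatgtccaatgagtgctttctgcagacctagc
Iapp (chr6:142298175-142298424, plus strand): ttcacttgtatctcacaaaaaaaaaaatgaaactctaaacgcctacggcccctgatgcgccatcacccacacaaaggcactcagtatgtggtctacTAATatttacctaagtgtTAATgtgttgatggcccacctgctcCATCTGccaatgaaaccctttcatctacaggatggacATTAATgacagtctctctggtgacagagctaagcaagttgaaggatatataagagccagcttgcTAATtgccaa
Gcg (chr2:62483654-62483903, minus strand): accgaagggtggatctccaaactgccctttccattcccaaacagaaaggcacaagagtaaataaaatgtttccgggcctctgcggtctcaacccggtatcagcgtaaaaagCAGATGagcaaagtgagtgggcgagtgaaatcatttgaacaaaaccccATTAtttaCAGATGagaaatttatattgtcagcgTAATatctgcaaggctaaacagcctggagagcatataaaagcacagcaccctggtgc
Gc (chr5:89457899-89458148, minus strand): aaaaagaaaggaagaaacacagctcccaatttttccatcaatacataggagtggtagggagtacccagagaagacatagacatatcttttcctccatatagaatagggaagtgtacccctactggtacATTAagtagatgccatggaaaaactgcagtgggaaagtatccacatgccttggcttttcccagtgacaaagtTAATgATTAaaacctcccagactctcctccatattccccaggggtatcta
The E box occurred 1 time in Ins1, 1 time in Iapp, 2 times in Gcg and 0 times in Gc. The homeodomain core occurred 3, 5, 2 and 3 times in the same order, and 2 of the 5 in Iapp overlap. A cAMP element core searched as TGACG or CGTCA was found in none of the 4. Of 32851 RefSeq promoters cut the same way, 14.4% held the E box, 54.9% the homeodomain core and 17.8% the cAMP core, so these matches describe the letters only. The α and β hormone genes thus carry like motifs in this window, and the motifs do not sort the 4 genes by cell type.

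The 24 DOX libraries held 18.7 to 58.5 M (mega) estimated counts each. They came from 2 sequencing runs, an earlier one with 10 libraries of 18.7 to 26.0 M and a later one with 14 libraries of 37.4 to 58.5 M. A count was seen for 17146 to 19367 genes per library, and no 2 libraries of a group were the same within sampling noise. RNA of other cell types set libraries apart. The 16 acinar (digestive enzyme) markers summed to over 1000 CPM (counts scaled to a fixed library total) in 5 libraries: α at ZT0 replicate 1, ZT4 replicate 2 and ZT8 replicate 2, and β at ZT0 replicate 1 and ZT8 replicate 2. The 8 stellate and fibroblast markers summed to over 100 CPM in 2 β libraries, ZT4 replicate 1 and ZT20 replicate 1. The 15 macrophage and dendritic markers summed to 69.0 to 153 CPM in α and 150.1 to 1766 CPM in β libraries, so this marker level runs along the comparison itself. In bulk RNA of sorted cells, fewer cells of a type and less RNA per cell cannot be told apart.

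β cells and α cells of DOX mice remained far apart. Levels are given as CPM scaled by the trimmed mean of M-values (TMM), and differences as log2 of β over α, with the SE, from edgeR's quasi-likelihood F test on all 24 libraries with time and run as terms. A gene counts as higher or lower when its Benjamini-Hochberg adjusted p is under 0.05. By that rule 10948 of 15370 genes tested (71.2%) differed, 5465 higher in β (35.6%) and 5483 lower in β (35.7%). At least 2-fold differences were found for 2197 genes higher in β (14.3%) and 1704 lower (11.1%). Differences of at least 16-fold, 4 on the log2 scale, were found for 329 genes higher and 214 lower in β, and differences of at least 8 on the log2 scale for 10 and 24. Of the genes called, 9829 of 10948 (89.8%) had the same direction at all 6 times. Calling used all times together, so this share is a description. The 12 α and 12 β libraries did not overlap at all for 3173 genes (20.6%), 1729 higher in β (11.2%) and 1444 lower (9.39%). A difference was called small when its 95% interval lay wholly inside 1.5-fold in either direction, which held for 6048 genes (39.3%). Of these, 3004 (19.5% of all tested) were also called, so they differed by a small and measurable amount. In control mice, fitted the same way, 71.4% of genes were called, 34.2% higher and 37.3% lower in β. A further 1378 DOX genes (8.97%) were neither called nor shown to be small.

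The insulin and amylin genes separated the types in every library. Ins1 (chr19:52264323-52265456 on GRCm38, as the files give it), 1 of the 2 mouse insulin genes, had a lowest, median and highest level of 40.9, 188 and 359.7 CPM in α and 45861, 74434 and 99387 CPM in β libraries. Its difference was 8.75 ± 0.34 on the log2 scale (adjusted p = 2.95e-15). Ins2 (chr7:142678656-142743381), the other insulin gene, ran at 166, 509 and 2204 CPM in α and 144098, 190062 and 259233 CPM in β, a difference of 8.49 ± 0.34 (adjusted p = 5.14e-15). Iapp, which encodes amylin, the peptide released with insulin, ran at 237, 288 and 714 CPM in α and 22158, 28879.8 and 38952 CPM in β, a difference of 6.53 ± 0.15 (adjusted p = 1.62e-18). For all 3 the lowest β library stood far above the highest α library. In control mice the 3 differences were 9.23, 9.25 and 6.88, and none of the 3 differed between treatments by the interaction test (adjusted p = 0.354, 0.132 and 0.11). Without control α ZT20 replicate 2 the interaction was called for Ins1 (-0.85), Ins2 (-1.11) and Iapp (-0.46).

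Gcg (chr2:62474530-62483650), the glucagon gene, showed the mirror image. Its levels were 221600.0, 323851 and 452872 CPM in α and 115, 213 and 384 CPM in β libraries, a difference of -10.40 ± 0.22 (adjusted p = 3.6e-19), close to the -10.85 of control mice. Gcg took 24.8 to 39.6% of all counts of the DOX α libraries, and Ins2 took 16.5 to 23.6% of those of the DOX β libraries. Ttr, which encodes the thyroid hormone carrier transthyretin and marks α cells, ran at 5433, 7355 and 10669.7 CPM in α and 969, 1827 and 2836 CPM in β. The groups did not overlap, yet the difference of -2.08 ± 0.14 (adjusted p = 1.81e-11) was much smaller than the -4.13 of control mice. The interaction, the DOX difference minus the control difference, was 2.01 ± 0.18 (adjusted p = 2.28e-10). Gc (chr5:89417522-89457898), the gene of the vitamin D binding protein and another α-cell marker, ran at 435, 571 and 731 CPM in α and 229, 371 and 651 CPM in β, and here the groups overlapped. Its difference was -0.58 ± 0.11 (adjusted p = 9.29e-05) after DOX against -2.89 in control mice, an interaction of 2.27 ± 0.15 (adjusted p = 1.17e-13). In the earlier run alone the Gc difference was -0.29 and not called, and the later run gave -0.81. With the macrophage marker level as a covariate, a fit described with the cell cycle genes, it was -0.19 and not called (adjusted p = 0.701). Set against control libraries of the same type, Ttr was 0.021 in DOX α and 2.05 in DOX β cells on the log2 scale, and Gc was 0.31 and 2.60. Of the 4 genes used to check the cell type labels, Ins2, Gcg and Ttr separated every library by type and Gc did not. The cells were sorted by reporters of the glucagon and insulin promoters. The separation by Gcg and the insulin genes is therefore not independent of the sort.

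**Figure D1:**
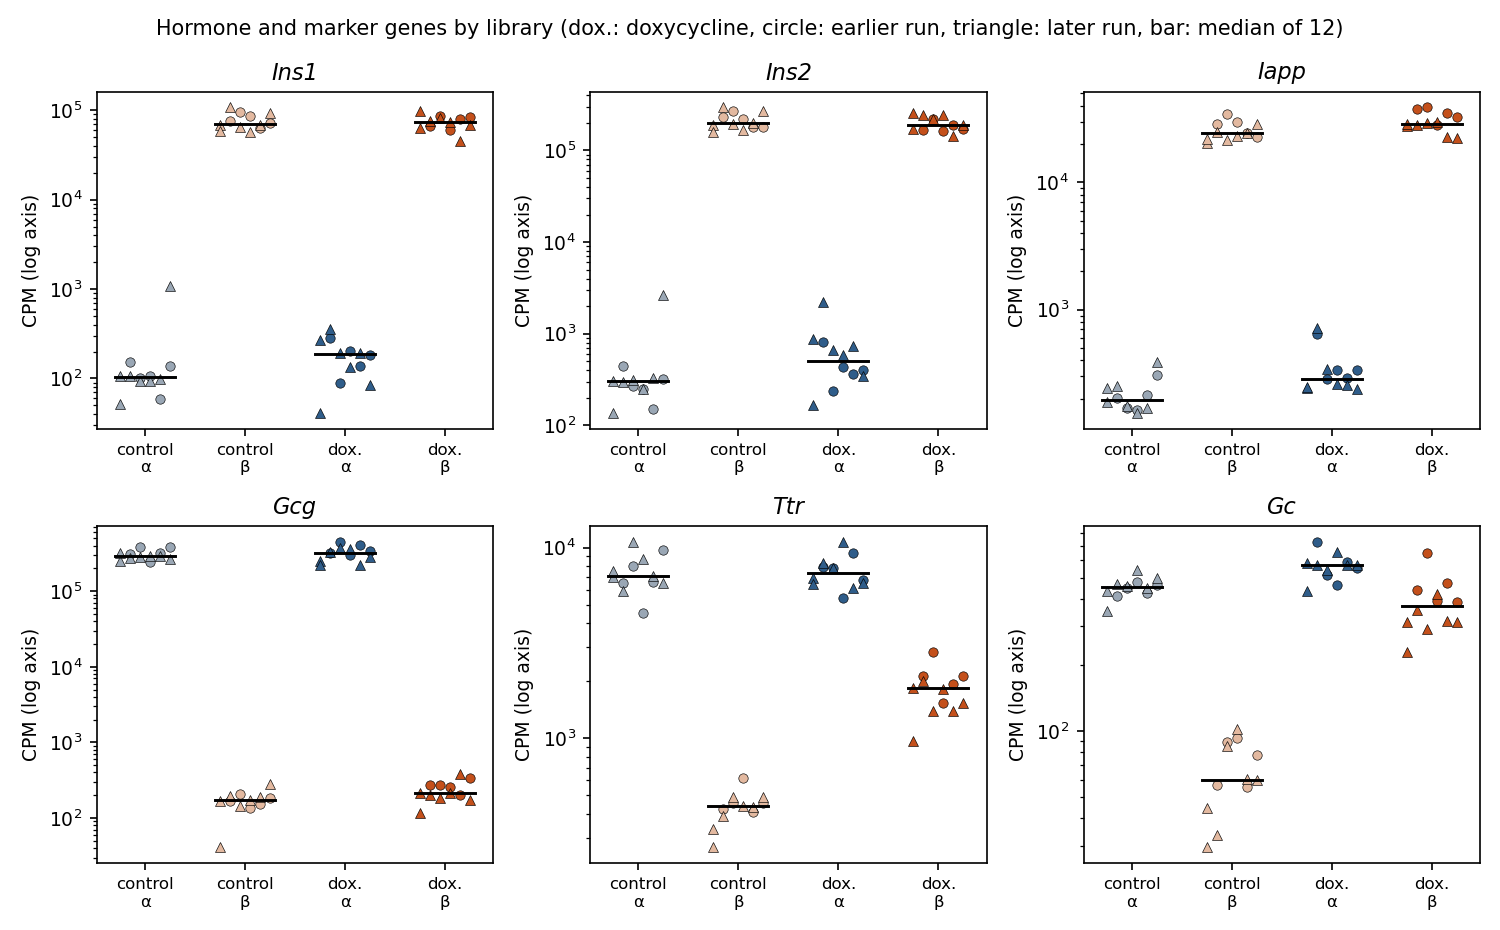
Level of the 6 marker genes, as CPM on a log axis (y), in α and β cells of control and DOX mice (x), with 1 point per library (circles for the earlier and triangles for the later run) and a bar at the median of 12. Ins1, Ins2, Iapp, Gcg and Ttr separate the 12 α and 12 β libraries of DOX mice, while Gc overlaps, with 435 to 731 CPM in α and 229 to 651 CPM in β.

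The β-cell identity genes, a list of hormone, receptor and secretion genes typical of mature β cells, were mostly far higher in β. Of 18 tested of 19 listed, 16 were higher in β, 1 was lower and 1 was not called, and 15 did not overlap between the types. The all-gene shares were 35.6% higher, 35.7% lower and 20.6% without overlap. In control mice 17 of the list were higher and none was lower. The member not called was Adcyap1r1, a receptor of the peptide PACAP named after its values were seen, at 0.107 to 2.51 CPM in α and 0 to 1.73 CPM in β (-1.02 ± 0.65, adjusted p = 0.164). The median difference of the list was 6.95 after DOX and 7.89 in control mice, beside -0.014 over all genes. The interaction narrowed 9 of the 18 and widened none. Mafa, the maturity factor of β cells, ran at 0.0931, 0.271 and 0.798 CPM in α and 64.4, 104 and 146 CPM in β, with a difference of 8.21 ± 0.23 (adjusted p = 2.04e-17). Ucn3, urocortin 3, which mature β cells release onto neighbouring δ cells, ran at 0.419, 1.26 and 2.64 CPM in α and 195, 281 and 549.6 CPM in β. Its difference of 7.89 ± 0.29 was narrower than the 9.06 of control mice (interaction -1.22 ± 0.37, adjusted p = 0.0125). Without the 6 of all 48 libraries with over 1000 CPM of acinar RNA the Ucn3 interaction was -0.85 and no longer called (adjusted p = 0.0949). Prlr, the prolactin receptor, differed by 7.59 ± 0.19, Ero1lb, an oxidase that forms disulfide bonds in the endoplasmic reticulum, by 4.78 ± 0.11, and Sytl4, a granule docking protein, by 7.53 ± 0.20. All 3 were non-overlapping, with β medians of 525, 3155 and 244 CPM against α medians of 2.77, 121 and 1.25 CPM.

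Slc30a8, the zinc transporter of insulin granules, was the identity gene with a small difference. It ran at 440.1, 505 and 636 CPM in α and 300.5, 401 and 679 CPM in β, and the groups overlapped. The difference was -0.25 ± 0.10, with an interval of -0.45 to -0.044, and was called lower in β (adjusted p = 0.0288). The Slc30a8 call was lost in each run alone, in 4 of 24 fits that leave out a library and with the macrophage marker level as a covariate. In control mice Slc30a8 was 0.54 higher in β, and the interaction was -0.82 ± 0.13 (adjusted p = 9.54e-06).

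Among all genes with at least 10 CPM in the higher type and 1 direction at all times, Ins1 and Ins2 led the higher side. They were followed by Car10, a carbonic anhydrase-related protein, at 8.21 ± 0.27, Mafa, Aass, an enzyme of lysine breakdown, at 8.12 ± 0.25, Ucn3, Tmem215 at 7.83 ± 0.22, Prss53, a serine protease, at 7.69 ± 0.19, Prlr, and G6pc2, the islet glucose-6-phosphatase, at 7.57 ± 0.21. None of these 10 overlapped between the types, though they were picked by size and direction in these same libraries. The α levels of Car10 and Aass reached 0, so their fitted values depend on edgeR's default prior count and are no bound. Car10 ran at 0 to 0.798 CPM in α against 51.4 to 93.2 CPM in β, and Aass at 0 to 0.798 CPM against 41.1 to 106 CPM. G6pc2 was detected in every α library, at 6.38 to 35.5 CPM against 2019 to 5522 CPM.

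The lower side included Gcg, Fgb (fibrinogen β chain), Pdk4 (a kinase that restrains pyruvate oxidation), Avpr1b (a vasopressin receptor), Irx1, Hhatl, Fam46d, Ugt8a and Sstr2 (a somatostatin receptor). Pdk4 ran at 138, 247 and 509 CPM in α and 0.179, 0.279 and 0.472 CPM in β, a difference of -9.81 ± 0.23 (adjusted p = 1.1e-18). Fgb ran at 6.14 to 21.1 CPM in α and at no more than 0.0993 CPM in β. Avpr1b ran at 50.9 to 166 CPM in α and at most 0.439 CPM in β, and Sstr2 at 12.7 to 45.4 CPM in α and at most 0.116 CPM in β. Some β libraries are at 0 for Fgb, Avpr1b, Irx1, Hhatl, Fam46d, Ugt8a and Sstr2. Their fitted values of -10.15, -9.41, -9.37, -9.35, -9.14, -8.99 and -8.97 depend on edgeR's default prior count and are no bound. None of these genes overlapped, though they too were picked by size and direction in the same libraries.

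α-cell identity genes were lower in β with few exceptions. Of 14 tested of 16 listed, 13 were lower, none was higher, and 12 did not overlap, beside 35.7%, 35.6% and 20.6% of all genes. The median difference was -4.18 after DOX and -5.47 in control mice, and the interaction narrowed 8 and widened 1. Irx2, a homeobox factor of α cells, ran at 96.7, 126 and 149 CPM in α and 0.802, 1.44 and 2.86 CPM in β, a difference of -6.31 ± 0.14 against -7.67 in control mice (interaction 1.36 ± 0.21, adjusted p = 9.22e-06). Dpp4, the protease that inactivates incretin hormones, was the exception: it ran at 41.7 to 82 CPM in α and 42.2 to 105 CPM in β and its difference was small (0.07, interval -0.14 to 0.28).

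Transcription factors of β cells were mostly higher in β. Of 10 β-cell factors tested, 9 were higher in β, 1 was lower and 7 did not overlap, beside 35.6%, 35.7% and 20.6% of all genes. The list median was 2.10 (2.51 in control mice). Pdx1 (chr5:147269959-147275848), required for β-cell identity and insulin transcription, had the lowest p of the list. It ran at 5.58, 7.32 and 9.4 CPM in α and 194, 217 and 288 CPM in β, a difference of 4.93 ± 0.075 (adjusted p = 3.51e-21). Nkx6-1, a repressor of α-cell genes in β cells, ran at 31.8, 44 and 55.7 CPM in α and 283, 392 and 645 CPM in β, a difference of 3.17 ± 0.11 (adjusted p = 7.07e-16). Both were narrower than in control mice, where Pdx1 differed by 5.31 and Nkx6-1 by 3.69 (interactions -0.41 ± 0.13 and -0.56 ± 0.13). The Pdx1 interaction was -0.36 and not called without the libraries with acinar RNA (adjusted p = 0.0825). Mnx1, a homeobox factor of β cells, was at 0 in some α libraries, so its fitted value of 6.32 ± 0.28 depends on the prior count. The single β-cell factor lower in β was Pbx2, a homeobox partner of PDX1, whose difference of -0.41 ± 0.051 was small.

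Of 11 α-cell factors tested, 10 were lower in β, 1 was higher and 10 did not overlap, beside 35.7%, 35.6% and 20.6% of all genes. The list median was -5.61 (-6.36 in control mice). Besides Irx1 and Irx2, the lower ones included Fev, which also marks serotonin neurons, at -5.61 ± 0.15. The factor that was higher was Nr4a2, an orphan nuclear receptor, named after its values were seen. It ran at 6.88, 14.2 and 23 CPM in α and 12.2, 25.8 and 67 CPM in β with overlap, a difference of 1.17 ± 0.17 (adjusted p = 3.86e-06). In control mice Nr4a2 was lower in β (-0.64), and the interaction was 1.78 ± 0.27 (adjusted p = 6.4e-06). The DOX difference was not called with the macrophage covariate (1.28, adjusted p = 0.0559 by edgeR).

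Factors that serve both types fell on either side. Of 16 tested, 3 were higher in β, 7 lower and 9 small (with the replicate block, 5 higher), beside 35.6%, 35.7% and 39.3% of all genes. The list median was -0.098 (0.061 in control mice). Neurod1, a helix-loop-helix factor that binds E boxes, ran at 118, 135 and 161 CPM in α and 118, 134 and 149.9 CPM in β. Its difference was -0.021, with an interval of -0.13 to 0.09. Pax6 (0.09, interval -0.037 to 0.22) and Rfx6 (0.27, interval 0.014 to 0.52), regulators of islet development and hormone transcription, were also small and not called. Isl1, the LIM homeobox factor of all islet endocrine cells, was an exception, at 129.7, 163 and 209 CPM in α and 55.8, 61.3 and 69.2 CPM in β. Its difference of -1.37 ± 0.057 (adjusted p = 8.22e-15) was wider than the -0.90 of control mice (interaction -0.51 ± 0.074, adjusted p = 2.43e-06). Insm1, a zinc finger factor of endocrine cells, was 1.71 ± 0.094 higher and Glis3, an activator of insulin transcription, 1.13 ± 0.11 higher in β, and Myt1, a factor of endocrine progenitors, was -0.99 ± 0.11.

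**Figure D2:**
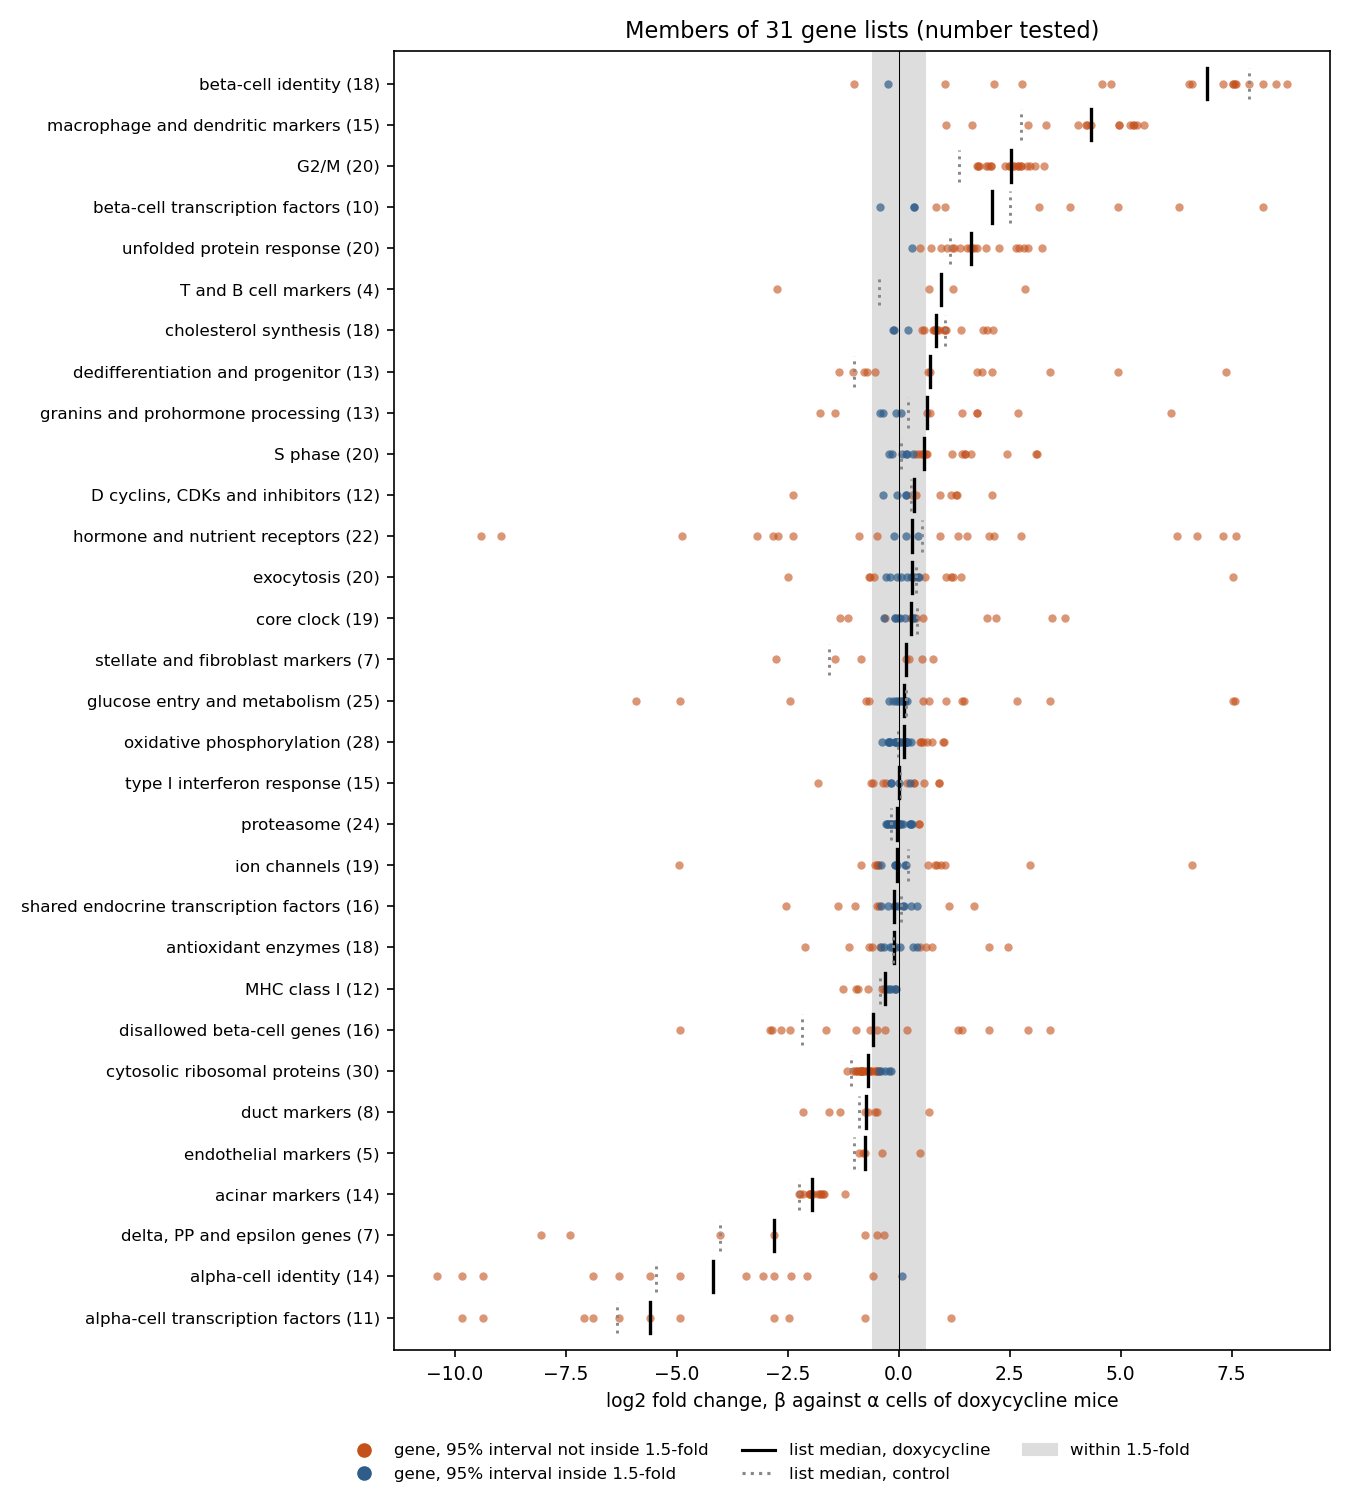
log2 difference of β over α in DOX mice (x axis) for each tested member of 31 gene lists, 1 point per gene, blue where the 95% interval lies inside 1.5-fold, with a solid bar at the list's median, a dotted bar at its control median and a grey band for 1.5-fold. β-cell identity (median 6.95), α-cell identity (-4.18) and G2/M genes (2.54) lie outside the band, while the medians of proteasome (-0.032) and oxidative phosphorylation genes (0.12) lie inside it.

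Genes of the other islet hormones followed the α cells. All 7 tested of 9 were lower in β, beside 35.7% of all genes, with a median of -2.80 against -4.03 in control mice. Ppy, pancreatic polypeptide, ran at 19949.9, 27779 and 39432 CPM in α and 62.6, 105 and 175 CPM in β, a difference of -8.07 ± 0.25 (adjusted p = 1.15e-16). Pyy, peptide YY, differed by -7.40 ± 0.18, Rbp4, a retinol carrier of δ cells, by -4.03 ± 0.14, and Etv1, an ETS factor, by -2.80 ± 0.083. Etv1 and Rbp4 were narrower than in control mice, where they differed by -4.03 and -4.87. Sst, somatostatin of δ cells, named after its values were seen, overlapped, at 944, 1439 and 2162 CPM in α and 497, 844 and 1336 CPM in β (-0.75 ± 0.14). The summed level of the 9 genes was 32788 to 59116 CPM in α and 699.6 to 1721 CPM in β libraries, so genes of these cell types were present in both sorts, and their part in the other differences was not tested.

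Granule proteins and prohormone processing split by gene. Of 13 tested, 7 were higher in β, 4 lower and 8 did not overlap, with a median of 0.62 (0.22 in control mice). For all genes these shares were 35.6%, 35.7% and 20.6%. Pcsk1, the convertase that cuts proinsulin, ran at 10.5, 21.7 and 31 CPM in α and 1104, 1337 and 1777 CPM in β, a difference of 6.14 ± 0.16 (adjusted p = 7.79e-18). Pcsk2, the convertase that yields glucagon, named after its values were seen, was lower in β, at 3322 to 4826 CPM against 7497 to 13238 CPM in α (-1.44 ± 0.09). The granins Scg2 (2.68 ± 0.094), Scg3 (1.43 ± 0.085) and Chgb (1.76 ± 0.11), which help granules form, were higher in β. Chgb ran at 1135, 1557 and 1991 CPM in α and 2607, 5086 and 8168 CPM in β without overlap, whereas the control difference was 0.22 (interaction 1.51 ± 0.13, adjusted p = 2.28e-10). Against control libraries of the same type, Chgb was 0.27 in DOX α and 1.79 in DOX β cells. Cpe, the carboxypeptidase that trims both hormones, was even between the types, at 3842, 5408 and 6316 CPM in α and 4298, 5456 and 6841 CPM in β (0.053, interval -0.079 to 0.18). Scg5, the helper protein of PCSK2, was also small (-0.063, interval -0.31 to 0.19). Pam, which amidates peptides, was called lower in β by a small amount (-0.35 ± 0.07), against -1.11 in control mice.

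Of 20 exocytosis genes tested, 11 were higher in β, 6 lower and 9 small, and the median was 0.30 (0.38 in control mice). The shares over all genes were 35.6% higher, 35.7% lower and 39.3% small. Besides Sytl4, Stx1a, the syntaxin of the fusion complex, separated the types and ran at 14.9, 18.7 and 24.6 CPM in α and 2.36, 3.46 and 4.79 CPM in β. Its difference of -2.49 ± 0.089 (adjusted p = 8.77e-16) was wider than the -1.84 of control mice (interaction -0.69 ± 0.13, adjusted p = 0.000218). Syt13, an atypical synaptotagmin, was 1.17 ± 0.079 and Rab3a, a granule GTPase, 1.06 ± 0.081 higher in β. Vamp2, the granule-side partner of syntaxin, was small (-0.046, interval -0.16 to 0.072).

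Glucose entry and metabolism genes gave 10 higher in β, 6 lower and 11 small of 25 tested, with a median of 0.12 (0.17 in control mice). Over all genes 35.6% were higher, 35.7% lower and 39.3% small. Slc2a2, the GLUT2 transporter of rodent β cells, ran at 0.854, 2.61 and 5.4 CPM in α and 214, 461 and 1081 CPM in β, a difference of 7.53 ± 0.27 (adjusted p = 1.03e-15). Pcx, pyruvate carboxylase, differed by 2.66 ± 0.11, against 3.35 in control mice. Hk1, the high-affinity hexokinase that is kept low in β cells, ran at 40.9, 49.4 and 56.5 CPM in α and 0.622, 1.59 and 3.68 CPM in β. Its difference of -4.94 ± 0.21 (adjusted p = 1.01e-14) was smaller in size than the -7.05 of control mice (interaction 2.03 ± 0.31, adjusted p = 6.69e-06).

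Of 19 ion channel genes tested, 7 were higher and 7 lower in β and 6 were small. All genes gave like shares, with 35.6% higher, 35.7% lower and 39.3% small. Kcnk3, a background potassium channel, ran at 119, 153 and 217 CPM in α and 1.94, 5.44 and 7.63 CPM in β (-4.95 ± 0.20, adjusted p = 7.81e-15). Trpm5, a calcium-activated cation channel of β cells at 0 in some α libraries, ran at 0, 0.211 and 0.438 CPM in α and 6.01, 12 and 54.1 CPM in β. Its difference of 6.59 ± 0.41 was below the 8.65 of control mice (interaction -2.14 ± 0.68, adjusted p = 0.0184). The 2 subunits of the ATP-sensitive potassium channel differed in pattern: Kcnj11, the pore, was -0.84 ± 0.066 in β, and Abcc8, the sulfonylurea receptor, was small (0.14, interval -0.051 to 0.33). Trpc1, a cation channel, was 0.94 ± 0.09.

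Receptor genes gave 11 higher, 9 lower and 15 without overlap of 22 tested of 25 listed. Over all genes the shares were 35.6%, 35.7% and 20.6%. Adra2a, the adrenergic receptor that restrains insulin release, had the lowest p, at 1.08, 2.07 and 3.82 CPM in α and 174, 236 and 272 CPM in β (6.72 ± 0.13, adjusted p = 1.34e-19). Glp1r, the receptor of the incretin GLP-1, ran at 0.109, 0.947 and 2.22 CPM in α and 114, 158 and 225 CPM in β (7.31 ± 0.23, adjusted p = 9.41e-17). The Glp1r interaction of -0.93 ± 0.33 (adjusted p = 0.0337) was not called without the libraries with acinar RNA (-0.52). Insr, the insulin receptor, was small (-0.10, interval -0.26 to 0.071), with 47.5 to 80.4 CPM in α and 39.5 to 77.3 CPM in β.

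Genes that mature β cells keep low, the so-called disallowed genes, stood closer in the 2 types after DOX by count. Of 16 tested, 5 were higher in β and 6 lower, with a median of -0.58, whereas in control mice 1 was higher and 10 lower of 15 with a median of -2.18. The interaction narrowed 8 and widened 2 of 15. Among all genes 35.6% were higher and 35.7% lower after DOX, and 34.2% and 37.3% in control mice. The DOX counts of the list lie near those shares. The interaction narrowed 13.1% and widened 13.9% of all genes with both differences. Oat, ornithine aminotransferase, ran at 39, 65.8 and 115 CPM in α and 4.23, 8.61 and 21.7 CPM in β, a difference of -2.91 ± 0.18 against -4.80 in control mice (interaction 1.84 ± 0.21, adjusted p = 4.12e-08). Against control libraries of the same type, Oat was 0.036 in DOX α and 1.92 in DOX β cells. Lmo4, a LIM-domain cofactor, was -1.64 ± 0.12 and Smad3, a TGF-β signal transducer, -2.66 ± 0.21 in β, and both kept non-overlapping groups. With the macrophage marker level as a covariate, 0 of the 16 were higher and 11 lower.

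Dedifferentiation and progenitor genes gave 7 higher and 4 lower in β of 13 tested with a median of 0.70, against 4 higher and 7 lower of 11 and a median of -1.01 in control mice. The all-gene shares after DOX were 35.6% higher and 35.7% lower. Aldh1a3, an aldehyde dehydrogenase that marks failing β cells, ran at 0.326, 0.875 and 6.8 CPM in α and 58.8, 235 and 428 CPM in β without overlap, a difference of 7.38 ± 0.34 (adjusted p = 4.21e-14). In control mice it was 6.58, and the difference between treatments was not called (interaction 0.92 ± 0.52, adjusted p = 0.195). Without the libraries with acinar RNA that interaction was 1.58 (adjusted p = 0.0333). Against control libraries of the same type, Aldh1a3 was 2.34 in DOX α and 3.41 in DOX β cells. Slc5a10, a sugar transporter, ran at 0.346, 0.659 and 1.2 CPM in α and 2.98, 17.1 and 124 CPM in β, a difference of 4.94 ± 0.48 against 1.95 in control mice (interaction 2.86 ± 0.56, adjusted p = 0.000237). Fabp3, a fatty acid binding protein, was 2.09 ± 0.21 and Cd81, a tetraspanin, -0.72 ± 0.083 in β.

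Every one of the 20 unfolded protein response genes was higher in β, 11 without overlap, beside 35.6% and 20.6% of all genes. The list median was 1.63 (1.15 in control mice). The interaction widened 12 and narrowed 1. Edem1, which sends misfolded glycoproteins to degradation, ran at 20, 28.5 and 35.9 CPM in α and 162, 210.1 and 268 CPM in β, a difference of 2.91 ± 0.07 (adjusted p = 1.95e-18). Sdf2l1 (3.22 ± 0.13) and Dnajb11 (2.65 ± 0.10), cofactors of the chaperone BiP, and Sel1l (1.97 ± 0.089), a subunit of the degradation complex, were also non-overlapping. Dnajb11 differed by 1.82 in control mice (interaction 0.79 ± 0.13, adjusted p = 3.29e-05). Hspa5, which encodes BiP and is named after its values were seen, overlapped, at 837, 919.8 and 1345 CPM in α and 1284, 3226 and 4936 CPM in β (1.53 ± 0.13). The summed level of the 20 genes was 3711 to 6153 CPM in α and 7523 to 19267 CPM in β libraries, lowest in β at ZT8 and ZT12. All 20 were also higher with the macrophage marker level as a covariate.

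Cholesterol synthesis genes were higher in β for 14 of 18 tested and lower for none, beside 35.6% and 35.7% of all genes. The list median was 0.84 (1.04 in control mice). Sqle, squalene epoxidase, ran at 34.4, 50.7 and 72.5 CPM in α and 173, 189 and 213 CPM in β, a difference of 1.90 ± 0.088 (adjusted p = 5.21e-14) and 1.91 in control mice. Lss (1.04 ± 0.071), Dhcr7 (1.02 ± 0.10) and Msmo1 (1.98 ± 0.19), enzymes further along the pathway, did not overlap between the types either. With the macrophage marker level as a covariate 7 of the 18 were called.

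Small differences were frequent among genes of energy metabolism and protein turnover. Of 28 oxidative phosphorylation genes, 21 were small, beside 39.3% of all genes, and the median was 0.12 (-0.026 in control mice). By the test 12 were higher and 5 lower in β, beside 35.6% and 35.7% of all genes. Atp5b, the ATP synthase β subunit, ran at 426, 571 and 638 CPM in α and 436, 556 and 676 CPM in β, and the interval of its difference was -0.12 to 0.13. Members outside the 1.5-fold limit included Cox5a (1.02 ± 0.087) and Cyc1 (0.74 ± 0.07), subunits of complexes IV and III, which did not overlap, and Ndufa1 (0.99 ± 0.11), a complex I subunit with 0.076 in control mice.

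Of 24 proteasome genes, 22 were small, none was without overlap, 6 were higher and 6 lower in β, and the median was -0.032. For all genes the shares were 39.3%, 20.6%, 35.6% and 35.7%, in that order. The 4 named members are all ATPases of the regulatory particle: Psmc3 (0.46 ± 0.06), Psmc4 (0.45 ± 0.069), Psmc1 (0.29 ± 0.056) and Psmc2 (0.26 ± 0.054). Psmc1 ran at 48.7, 57.9 and 68.8 CPM in α and 58.2, 69.3 and 88.3 CPM in β, so the groups overlapped.

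Ribosomal protein genes differed in 1 direction. Of 30 tested, 29 were lower in β, none was higher and 5 were small, beside 35.7%, 35.6% and 39.3% of all genes. The list median was -0.70 against -1.08 in control mice. The interaction narrowed 17 and widened none. Rpl13 ran at 149, 242 and 276 CPM in α and 76, 103 and 136 CPM in β, a difference of -1.17 ± 0.076 (adjusted p = 1.57e-11). Rps24 (-1.03 ± 0.073), Rpl5 (-0.95 ± 0.073) and Rpl23 (-0.87 ± 0.069) did not overlap, while Rplp0, a stalk protein, was small (-0.17, interval -0.37 to 0.021) against -0.99 in control mice. Many ribosomal genes have near-identical pseudogenes, so reads may be split among copies. With the macrophage marker level as a covariate 5 of the 30 were lower, and a block of 24 replicate pairs called 27 as shifted toward β in place of 17.

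The most abundant genes with a small difference were largely of the mitochondrial genome and the secretory pathway. mt-Co1, a subunit of complex IV, ran at 4226, 6819 and 7835 CPM in α and 4303, 6153 and 8243 CPM in β, with an interval of -0.16 to 0.22. mt-Nd5 (-0.12), mt-Nd2 (-0.15) and mt-Cytb (0.24) were also small, mt-Cytb being called (adjusted p = 0.0142) but not in either run alone. Eef2, the translation elongation factor, was -0.24 and Maged1 was 0.42, both called and small, and Cpe and Pam were described above. In control mice mt-Co1 was 0.44 higher in β, and the difference between treatments was -0.45 ± 0.14 (adjusted p = 0.0177).

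Genes of mitosis were higher in β. All 20 genes of the G2/M list, which act in mitosis, were higher in β by at least 2-fold, and for all 20 the 12 α and 12 β libraries did not overlap, which held for 20.6% of all genes. Their median difference was 2.54, against 1.35 in control mice where all 20 were also higher, and the interaction widened 16 and narrowed none. By run, the median was 3.13 in earlier-run libraries and 2.10 in later-run libraries. Cdc20, the activator of the anaphase complex, ran at 1.17, 2.39 and 2.82 CPM in α and 7.12, 16.5 and 22.9 CPM in β, a difference of 2.76 ± 0.18 (adjusted p = 2.56e-11) against 1.24 in control mice (interaction 1.496, adjusted p = 0.000209). Ccnb1, cyclin B1, ran at 0.438, 1.08 and 1.77 CPM in α and 4.52, 7.54 and 13.8 CPM in β, Plk1, a mitotic kinase, at 0.701, 1.14 and 2.61 CPM and 5.65, 8.43 and 18.4 CPM, and Cenpe, a kinetochore motor, at 0.0876, 0.652 and 1.43 CPM and 2.53, 7.77 and 12.5 CPM. These are low levels in both types. Their differences were 2.88 ± 0.22, 2.95 ± 0.23 and 3.26 ± 0.25.

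S-phase genes gave 15 higher in β and 2 lower of 20 tested, with a median of 0.57, against 6 higher and 7 lower and a median of 0.042 in control mice. Rrm2, a subunit of ribonucleotide reductase, ran at 1.08, 2.31 and 4.02 CPM in α and 14.5, 18.8 and 30.8 CPM in β (3.11 ± 0.16, adjusted p = 2.36e-13). Cdc6 (3.08 ± 0.24), which loads the replicative helicase, Fen1 (1.42 ± 0.095), a flap endonuclease, and Mcm2 (1.19 ± 0.10), a helicase subunit, were higher without overlap. Of 12 D cyclins, kinases and inhibitors, 6 were higher and 2 lower, beside 35.6% and 35.7% of all genes. They included the inhibitors Cdkn1a (2.11 ± 0.14, 1.08 in control mice), the p53 target p21, and Cdkn2c (1.32 ± 0.11), as well as Ccnd1 (0.94 ± 0.082), cyclin D1. Cdkn1c, the inhibitor p57, was -2.39 ± 0.28 in β.

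Macrophage and dendritic markers were higher in β as well. All 15 were higher in β after DOX, with a median difference of 4.33, and 9 did not overlap. For all genes these shares were 35.6% and 20.6%. In control mice 12 of the markers were higher and 1 lower, with a median of 2.76. By run, the DOX median was 3.92 in earlier-run and 4.72 in later-run libraries. Lyz2, lysozyme of myeloid cells, ran at 0.419, 2.99 and 7.98 CPM in α and 13.6, 98.9 and 414 CPM in β (5.28 ± 0.44), H2-Eb1, an MHC class II chain, differed by 4.33 ± 0.36, and the complement genes C1qc and C1qb by 5.30 ± 0.43 and 5.52 ± 0.47. The summed level of the 15 was 69.0, 91.3 and 153 CPM (lowest, median and highest) in DOX α libraries and 150.1, 885.5 and 1766 CPM in DOX β libraries. In control mice it was 44.5 to 160.5 CPM in α and 60.0 to 438.9 CPM in β. No marker of the list was at 0 in any of the 4 groups.

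The G2/M genes summed to 31.4, 51.4 and 79.1 CPM in DOX α and 156.4, 276.2 and 521.3 CPM in DOX β libraries. A fit with the mean log2 CPM of these markers as an added term was tried once the data had been seen. In it, 18 of 20 G2/M genes and 10 of 20 S-phase genes were higher in β. The summed marker levels of the types touch only between 150.1 and 153 CPM, so the covariate and the cell type are hard to separate. C1qa alone averaged 50.7 CPM in α, where the summed median was 91.3 CPM. Over all genes the calls went from 10948 to 5317. The part of macrophage RNA in the cell cycle differences was otherwise not tested.

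**Figure D3:**
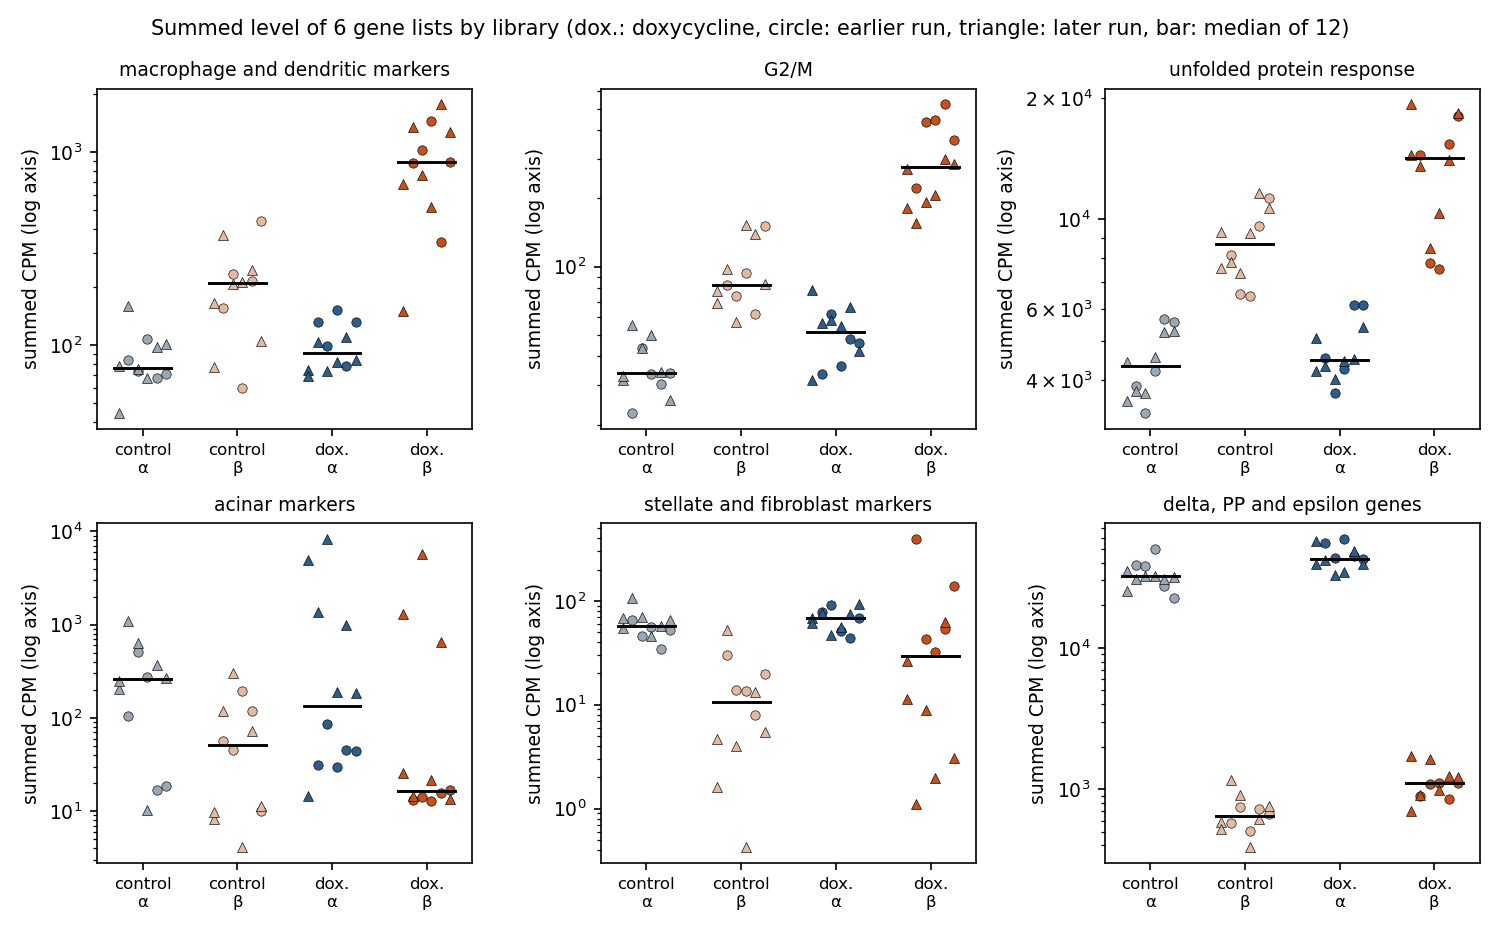
Summed level per library, as CPM on a log axis, of the macrophage, G2/M, unfolded protein response, acinar, stellate and δ, PP and ε lists in α and β cells of control and DOX mice, with 1 point per library (circles for the earlier, triangles for the later run) and a bar at the median of 12. DOX β libraries sit at 156.4 to 521.3 CPM for G2/M genes and at 150.1 to 1766 CPM for macrophage markers, against 31.4 to 79.1 and 69.0 to 153 CPM in DOX α.

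Called markers of other cell types lay on both sides, as did all genes, with 35.6% higher and 35.7% lower in β. Acinar markers were lower in β for 7 of 14 tested, with a median of -1.96 (14 of 14 with the replicate block), 12 of 13 in the earlier and 1 of 14 in the later run. Their summed level was 14.4 to 8353 CPM in α and 12.9 to 5779 CPM in β. Pnlip and Cpb1, pancreatic lipase and a carboxypeptidase, ranged over 0.465 to 1136 and 0.233 to 615 CPM in α, and their differences of -2.23 ± 0.91 and -2.25 ± 0.93 were not called in 5 and 6 of the 24 fits that leave out a library. Stellate and fibroblast markers were lower in β for 2 of 7, with 4 higher among earlier-run libraries and none among later-run ones. Col1a2, a collagen chain, was -2.77 ± 0.67, with -0.99 in the earlier and -4.82 in the later run. Of 5 endothelial markers tested, 2 were lower, Esam (-0.80 ± 0.089) and Egfl7 (-0.89 ± 0.16). Of 8 duct markers tested, 5 were lower and 1 higher: Cldn4 (-1.57 ± 0.14), Spp1 (-2.15 ± 0.23) and Epcam (-0.76 ± 0.071) among the former and Krt7 (0.68 ± 0.08, with 0.83 in the earlier and 0.55 in the later run) the latter. Epcam and Krt7 are also epithelial genes of islets. Of 4 T and B cell markers tested, Cd79a of B cells was higher (2.85 ± 0.41, with 2.42 in the earlier and 3.19 in the later run) and Cd3e of T cells lower (-2.75 ± 0.71). The part of these cells in the differences was not tested.

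Type I interferon response genes lay on both sides, and the MHC class I genes that were called were lower in β. Of 15 type I interferon response genes, 2 were higher and 2 lower in β, with a median of 0.0077. With the replicate block 5 were higher and 3 lower. Ifit1, an antiviral RNA-binding protein, ran at 4.33, 9.99 and 39 CPM in α and 0.649, 1.72 and 21 CPM in β and was -1.81 ± 0.29. Irf7, the regulator of interferon genes, was -0.63 ± 0.23, and Usp18, a protease that curbs interferon signalling, 0.24 ± 0.076. Mx2, of the antiviral GTPase family and annotated here as a polymorphic pseudogene, was 0.91 ± 0.39. The Mx2 call was lost in 14 of 24 fits that leave out a library, and the Irf7 call was lost without ZT0 and in the earlier run alone. MHC class I genes gave 5 lower and none higher of 12 (8 lower with the replicate block), with a median of -0.30. For both lists, the shares over all genes are 35.6% higher and 35.7% lower. H2-T23 (-1.26 ± 0.11), a nonclassical class I chain, Psmb8 (-0.96 ± 0.16) and Psmb9 (-0.69 ± 0.15), immunoproteasome subunits, and B2m (-0.92 ± 0.21), the light chain, all overlapped.

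Antioxidant genes held 7 higher and 9 lower of 18 tested, with a median of -0.11, beside 35.6% higher and 35.7% lower over all genes. Gpx3, the secreted glutathione peroxidase, ran at 3815, 4870.3 and 6931 CPM in α and 470.0, 1127 and 1869 CPM in β without overlap, a difference of -2.11 ± 0.15 (adjusted p = 6.29e-11). Control mice had -5.38, and the interaction was 3.24 ± 0.20 (adjusted p = 3.06e-14). Set against control libraries, Gpx3 was 0.22 in DOX α and 3.47 in DOX β cells. Txnip, the glucose-induced inhibitor of thioredoxin, ran at 156, 283 and 524 CPM in α and 693, 1786 and 2376 CPM in β, a difference of 2.47 ± 0.19 against 0.78 in control mice (interaction 1.65 ± 0.28, adjusted p = 3.91e-05). Prdx2 (-0.61 ± 0.055) and Gclm (-0.67 ± 0.07), a peroxiredoxin and a subunit of glutathione synthesis, were lower in β with overlap.

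The DOX and control comparisons share no library, so their gene lists can be set against each other. Of 1622 genes at least 2-fold higher in β in control mice and tested in both, 1326 (81.8%) were so after DOX, 231 (14.2%) were higher by less, 60 (3.7%) were not called and 5 (0.308%) were lower. Of the same 1622, 17 (1.05%) were small. Of 1855 genes at least 2-fold lower in β in control mice, 1315 (70.9%) were so after DOX, 284 (15.3%) were lower by less, 229 (12.3%) were not called and 27 (1.46%) were higher, and 32 (1.73%) were small. Seen from DOX mice, the shared genes are 68.9% of the 1925 higher and 80.6% of the 1631 lower genes, and 256 (13.3%) and 59 (3.62%) of these were not called in control mice. The interaction was called for 4126 of 16207 genes (25.5%), 2053 toward β (12.7%) and 2073 toward α (12.8%). The gap was narrower for 1945 (13.1%) and wider for 2066 (13.9%) of the 14818 genes with both differences. Of the genes 2-fold lower in β in control mice 574 (30.9%) narrowed and 88 (4.74%) widened, and of those 2-fold higher 385 (23.7%) narrowed and 197 (12.1%) widened. These genes were chosen by the control difference, so the shares are a description.

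**Figure D4:**
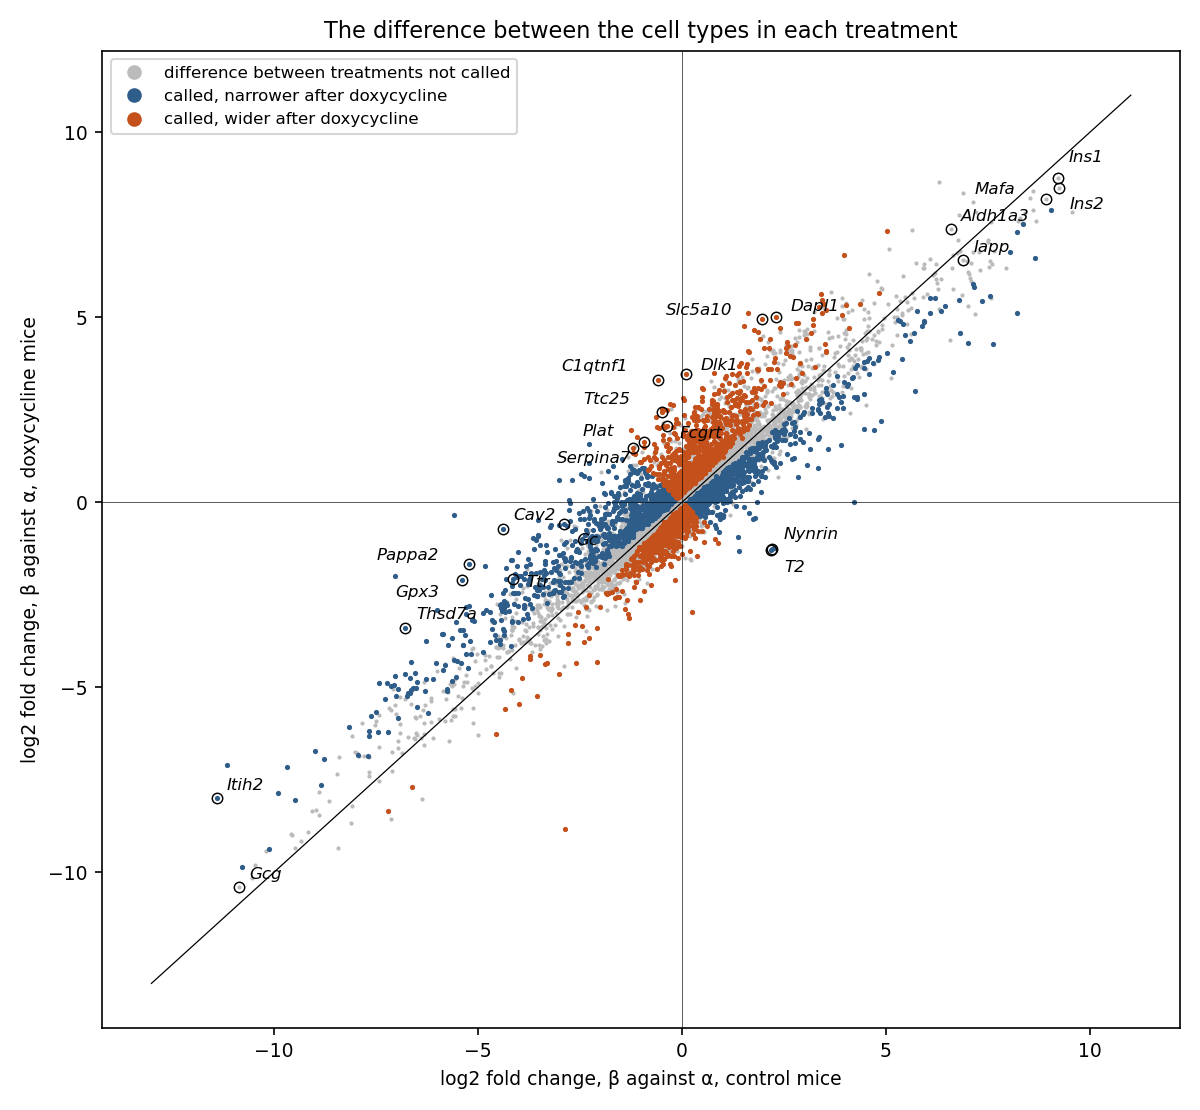
log2 difference of β over α in control mice (x axis) against DOX mice (y axis), 1 point per gene tested in both, grey where the treatments were not called different, blue where narrower and orange where wider after DOX, with the diagonal of equal difference. Gcg, Ins1 and Ins2 lie near the diagonal, Gpx3 (-5.38 and -2.11) and Gc (-2.89 and -0.58) above it on the α side, and C1qtnf1 (-0.60 and 3.31) across 0.

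Most of the genes named as narrowing were lower in β cells of control mice and were less so after DOX. Cav2, a caveolin, went from -4.39 in control mice to -0.71 ± 0.19 after DOX, when it ran at 8.8, 12.1 and 22 CPM in α and 2.98, 9.25 and 16.4 CPM in β with overlap. Pappa2, a protease of IGF-binding proteins, went from -5.23 to -1.68 ± 0.15, at 1426, 2741 and 3613 CPM in α and 377, 698 and 1588 CPM in β, also with overlap. Thsd7a went from -6.78 to -3.38 ± 0.26 and Gpx3 as above. Itih2, a hyaluronan-binding plasma protein, narrowed from -11.40 to -8.001, but some of its β libraries are at 0, so these values depend on the prior count. In control mice Cav2 ran at 0.0834 to 1.31 CPM and Pappa2 at 19.8 to 218 CPM in β. Another 2 crossed: Nynrin went from 2.18 to -1.28 ± 0.16, and T2 from 2.20 to -1.26 ± 0.32. Both had been higher in control β cells and were lower than in α cells after DOX, and the T2 difference was not called in the later run alone (-0.89).

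Among genes called wider, the 8 with the largest interactions all shifted toward β. For several of them the difference changed sign. C1qtnf1 (chr11:118428203-118449963), a secreted relative of adiponectin, ran at 2.56, 5.33 and 7.28 CPM in α and 26.4, 49.1 and 82.7 CPM in β without overlap, a difference of 3.31 ± 0.16 (adjusted p = 1.11e-13) against -0.60 in control mice. Dlk1, a noncanonical Notch ligand, ran at 0.108, 0.829 and 1.89 CPM in α and 2.67, 6.33 and 28.8 CPM in β, 3.46 ± 0.39 against 0.09. Dapl1 ran at 3.47, 5.82 and 16.9 CPM in α and 86.4, 165 and 373 CPM in β, 4.99 ± 0.25 against 2.32. Slc5a10 was described above. Plat, tissue plasminogen activator, went from -1.21 to 1.46 ± 0.21, Serpina7, thyroxine-binding globulin, from -0.92 to 1.63 ± 0.26, and Ttc25, a ciliary protein, from -0.49 to 2.43 ± 0.37. Fcgrt, the neonatal Fc receptor, went from -0.36 to 2.06 ± 0.47. With the macrophage marker level as a covariate its DOX difference was -3.86 and called the other way (adjusted p = 0.0021 by edgeR). That covariate is hard to separate from the cell type, and the part of macrophage RNA in the Fcgrt difference was not tested. With that covariate the DOX differences of Dlk1 (2.21), Serpina7 (1.04) and Ttc25 (1.19) kept their sign and were not called.

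Time of day changed no difference past the threshold. No gene of 15370 had a difference that varied with time at an adjusted p under 0.05 (0%) by edgeR's quasi-likelihood test, and 450 (2.93%) did at an unadjusted p. With the 12 pairs of replicates as a block these counts were 0 and 738. Each type had 2 libraries per time, which limits what this test can call. The lowest p, none past the threshold, belonged to Stard4, a cholesterol carrier, Aldh1l2, a mitochondrial folate enzyme, Gper1, an estrogen receptor, Spon2, Raph1 and Sphkap. Aldh1l2 was higher in β at 36.2 to 78.5 CPM against 2.14 to 10.1 CPM, and Gper1 lower (-4.40 ± 0.35).

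Core clock genes gave 8 higher in β, 4 lower and 8 small of 19 tested, with a median of 0.27 (0.42 in control mice). All genes together gave 35.6% higher, 35.7% lower and 39.3% small. Bhlhe40, the DEC1 repressor, ran at 1.96, 4.2 and 8.54 CPM in α and 19.5, 43.5 and 104 CPM in β without overlap (3.45 ± 0.23, adjusted p = 2.07e-11). Npas2, a partner of BMAL1, was 2.20 ± 0.27 and Ciart, a clock repressor, 3.74 ± 0.53. Per3, a period gene, was -1.32 ± 0.17 in β against -0.22 in control mice (interaction -1.14 ± 0.29, adjusted p = 0.00357). Arntl, which encodes BMAL1, Dbp and Nr1d1 are named after their values were seen. Arntl ran at 1.5 to 25.6 CPM in α and 3.41 to 29.7 CPM in β (0.39 ± 0.15, not called in the later run alone), and Dbp at 9.68 to 103 CPM and 12.1 to 84.5 CPM (0.27 ± 0.18, not called). Nr1d1, the REV-ERBα repressor, was higher in β (2.00 ± 0.35), with 19.4 to 167 CPM against 7.58 to 73.8 CPM, and the groups overlapped.

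**Figure D5:**
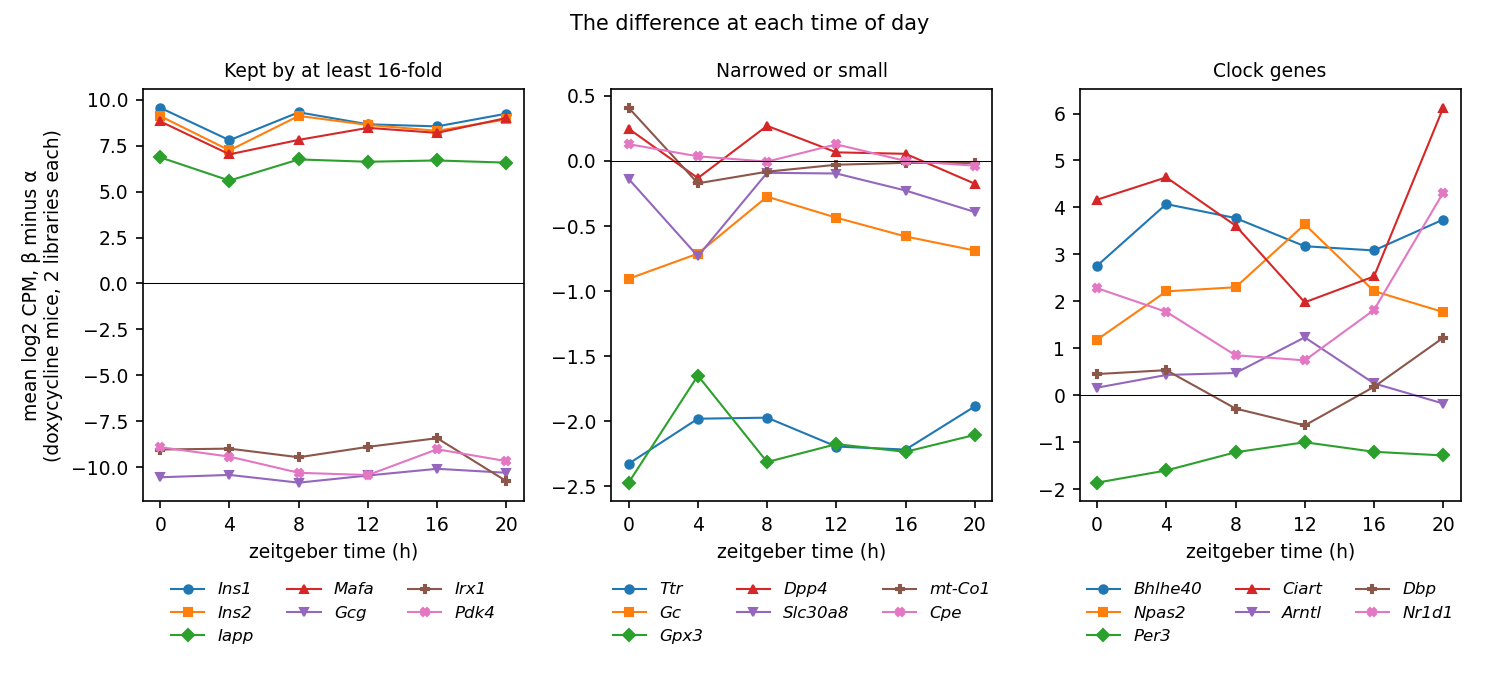
Mean log2 CPM of β minus α (y axis) at each zeitgeber time in hours (x axis) in DOX mice, from 2 libraries of each type per time, for genes kept by at least 16-fold (left), narrowed or small (middle) and of the clock (right). Ins1 and Ins2 stay above and Gcg and Irx1 below 0 at all 6 times, while Cpe and mt-Co1 lie near 0 and Arntl and Dbp cross it.

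Most large differences had the same sign in both runs. In the earlier run 8624 of 14509 genes (59.4%, with 30.3% higher and 29.1% lower in β) and in the later run 9758 of 15489 (63%, with 31.4% higher and 31.6% lower) were called. Of the genes called at least 2-fold and fitted in both runs, 3467 of 3476 (99.7%) had the same sign in each. The choice of genes rested on both runs together, so that share is a description. The difference between β and α depended on the run for 8 genes (0.052%), and for 1448 (9.42%) at an unadjusted p. Genes of low p included Sorcs1, a sorting receptor (-2.84 in the earlier and -5.55 in the later run), Igf2, insulin-like growth factor 2 (4.20 and 1.81), Chl1, an adhesion protein (-2.27 and -5.46), Scn7a, a sodium channel (0.55 and -3.10), and Calcr, the calcitonin receptor, which was not tested in the earlier run. Stellate markers summed to 32.4 to 396.5 CPM in earlier-run and 1.12 to 62.2 CPM in later-run β libraries. Their part in the run difference was not tested.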

How the data were processed

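Estimated counts per gene were deposited by the authors for 48 libraries, together with RPKM tables that were not used here. Per the submitters' processing notes, STAR, bcl2fastq and GRCm38 were used, and the counting program and its settings are not given in the sources used here. The library kit does not mark strand. Of the non-zero deposited estimated counts, 53.4 to 70.1% per DOX library were whole within 1e-06, and 99.7 to 100% of whole values up to 20 were even, so halved counts were tried as an alternative. Counts were rounded and fitted with edgeR 4.0.16 (limma 3.58.1, R 4.3.3) by its quasi-likelihood F test, with cell type, time and run as terms and TMM scaling. The filter was filterByExpr with a count minimum of 10 and a total minimum of 15. Fold changes used edgeR's default prior count, and log2 CPM values per library a prior count of 2. SEs follow from the F statistic, or from the model for differences under 0.1. DESeq2 1.42.0 and limma-voom were alternatives. The fits were tested on simulated data.

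The groups came from the labels. The members and the 32 gene lists (466 of 495 genes tested) were chosen with earlier results of these data known. Genes were named by rule. These were 6 markers and the 10 largest differences in each direction with at least 10 CPM and the same sign at each time. In each list the 4 members of lowest p were named. Some of the members inside 1.5-fold were also named, picked with their values known. Interaction genes needed a mean of 10 CPM in their highest group and a call in control (narrower) or DOX mice (wider). The 8 largest such interactions among genes called narrower and the 8 among those called wider were also named. So were the 8 most abundant small genes and 6 each for time and run. Antigen receptor segments and predicted genes were skipped, genes named otherwise are said to be, and some genes that the rule names are not reported here. Same-numbered α and β libraries deviated together at all 6 times (correlations 0.178 to 0.514, or 0.098 to 0.427 with the run removed). The run goes with the number at 5 of these times, so a replicate block was an alternative. Promoters are from RefSeq (GRCm38.p6), where Ins2 was not matched.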

Additional observations from a re-analysis of the deposited data

Results flagged for a closer look

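The difference between β and α cells itself differed between DOX and control mice for 4126 genes by the interaction test of edgeR, narrower in DOX mice for 1945 and wider for 2066 of those with a difference in both. Values below are the interaction, the DOX minus the control difference on the log2 scale. Among the cell type markers it was 2.01 for Ttr and 2.27 for Gc, which both came closer in the 2 types, while it was not called for Ins1, Ins2, Iapp or Gcg. Genes called narrower with large interactions were Cav2 (3.61), Pappa2 (3.51), Nynrin (-3.49), T2 (-3.49), Itih2 (3.41), Thsd7a (3.32) and Gpx3 (3.24). The differences of Nynrin and T2 changed sign. Genes called wider were taken within the limits for naming. Their largest interactions were C1qtnf1 (3.89), Dlk1 (3.38), Ttc25 (2.88), Slc5a10 (2.86), Dapl1 (2.63), Plat (2.63), Serpina7 (2.52) and Fcgrt (2.42). Of these, C1qtnf1, Ttc25, Plat, Serpina7 and Fcgrt changed sign. The Itih2 and Slc5a10 interactions were not called by limma-voom (adjusted p = 0.0703 and 0.0758), and the Fcgrt interaction was not called with the macrophage marker level as a covariate. The difference between the types differed between the sequencing runs for 8 genes.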

How the results depend on the processing

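Other scalings, filters, tools and designs, each run alone, halved counts and leaving out ZT0 or a library kept the counts of genes called and of genes past 2-fold within 1.5 times. So did other scalings, filters, tools, no run term, the block and leaving out a library for the treatment differences, which were not fitted in each run alone, with halved counts, without ZT0 or over means of groups. Setting the limit for a small difference at 1.2-fold gave 1586 genes and at 2-fold 9510, in place of 6048. The macrophage covariate, an alternative chosen after seeing the data like those without acinar or fibroblast RNA, gave 5317 genes called, 2799 higher and 2518 lower in β, and 1527 small. Of 3901 genes past 2-fold, 2424 were called in the same direction with it, 3331 of 3501 tested in the earlier run alone and 3694 of 3848 in the later. Those 3901 were chosen by the main fit, which holds the libraries of both runs. Leaving out each library in turn gave 10767 to 11097 called, 5049 to 5477 higher, 5373 to 5898 lower, 2071 to 2277 higher and 1692 to 1869 lower past 2-fold, and 5823 to 5995 small. The same for the treatment differences gave 3789 to 4289, 1770 to 2219 toward β, 1743 to 2206 toward α, 1794 to 1986 narrower and 1888 to 2200 wider. Of the named genes, 161 were called between β and α and 90 between treatments. Leaving out a library ended the call of 8 of the former in at least 1 fit (52 values of 4416 in all) and of 11 of the latter (168 of 8832). It also moved 29 of 160 list counts past 1.5 times (234 of 5376 values). In the earlier run alone Scn7a (0.55) changed sign. With the macrophage covariate Cd4 (-4.36), Fcgrt (-3.86), Mx2 (-0.58), Pam (0.19), Rgs5 (0.12), Usp18 (-0.16) and the treatment difference of Lyz2 (-0.18) changed sign, and the cause was not tested. That covariate ended the call of 28 named genes between β and α and of 10 between treatments and moved 59 list counts. Among the 28 were Gc (-0.19, adjusted p = 0.701 by edgeR), Cav2 (-0.88), Nynrin (-0.86), T2 (-2.05), Slc30a8 (-0.55) and Nr4a2 (1.28). The earlier run alone ended 8 and the later run 10 of the calls between β and α. The replicate block of 12 pairs gave 11328 genes called and 6252 small, and the block of 24 pairs 5125 treatment differences. The block moved the acinar list from 7 to 14 lower, MHC class I from 5 to 8 lower, interferon genes from 2 to 5 higher and shared factors from 3 to 5 higher. Depth limits the genes near 0 in 1 type, whose fold depends on the prior count.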
